A study of Mus musculus with 84 samples.

Results

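The 8 genes followed here, Hmgcs1, Sqle, Idi1, Fdps, Fdft1, Lss, Cyp51 and Insig1, were taken by their symbols from a table of 18909 genes, and all 8 were found and passed the filter on low counts that 10979 genes passed. The 8 genes were chosen with earlier results of these data known. Shares of them set beside those of all genes are therefore descriptions and not tests. They are 7 enzymes of cholesterol synthesis and 1 regulator of it (Insig1), and none of them encodes a receptor that takes up cholesterol, although they were grouped as synthesis and uptake genes. Expression had been read by STRT RNA-seq, which reads transcripts from their 5′ ends. There were 10 groups with 3 biological replicates each. The question was how these genes behaved as mouse embryonic fibroblasts (MEFs) were reprogrammed towards pluripotency, with a control vector or with the constitutively active Smad3CA. The MEF group was wild-type strain 129 MEFs, grown with FGF2 and heparin and not sorted. The ESC group was the single TNG MKOS embryonic stem cell line, which carries a Nanog-GFP reporter in place of 1 Nanog allele and the MKOS cassette, in which doxycycline turns on the reprogramming factors c-Myc, Klf4, Oct4 and Sox2 together with mOrange, and which was grown with LIF. The other 8 groups were MEFs derived from that line by way of chimeric embryos, with the same Nanog-GFP allele and MKOS cassette. The paper states that such cultures were a mixture with wild-type MEFs, which were the larger part. They were infected with a retrovirus for blue fluorescent protein (BFP, here Cont) or for Smad3CA (+Sm3CA). Cells were given vitamin C and 300 ng/ml doxycycline in ESC medium, and sorted for mOrange on day 3, 6, 8 or 10.

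All 8 are protein-coding and lie, on GRCm38 with GENCODE annotation, at chr13:119690379-119708260 (Hmgcs1), chr15:59315077-59331192 (Sqle), chr13:8885501-8892451 (Idi1), chr3:89093588-89101959 (Fdps), chr14:63145150-63179578 (Fdft1), chr10:76531588-76557138 (Lss), chr5:4081145-4104746 (Cyp51) and chr5:28071363-28078662 (Insig1).

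Cells make cholesterol from acetyl-CoA. Hmgcs1 works at the entry to the mevalonate pathway, Idi1 and Fdps build the isoprenoid farnesyl diphosphate, and Fdft1 joins this into squalene, the first intermediate committed to sterols. Sqle oxidizes squalene, Lss closes it into lanosterol, and Cyp51 removes the first methyl group on the way to cholesterol. When membrane sterol is low, SREBP2 is released from the endoplasmic reticulum, is cut and switches these genes on together, whereas Insig1, itself a target of SREBP, holds the SREBP escort Scap back when sterol is high.

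Libraries, each the sum of 3 wells or of 2 wells on day 10, held 1008596 to 2296059 reads. MEF, ESC and day 3 wells lay in rows A to C of the plate, days 6 and 8 in rows D to F and day 10 in rows G and H, so that day and plate row cannot be told apart, whereas the 2 vectors of a day shared their rows. Smad3 was higher in every +Sm3CA library than in every control library of the same day, at 89.0 to 184 against 5.19 to 18.7 normalized counts on day 3 and at 32.8 to 47.7 against 14.8 to 25.4 on day 10, counts in which vector and endogenous reads cannot be told apart. Fibroblast markers (10 genes) summed to 4534 to 6238 normalized counts in MEFs and to 3.86 to 7.23 in ESCs, where 6 or 7 of them were at 0, and pluripotent markers (10 genes) summed to 8.89 to 14.1 in MEFs and to 29062 to 54934 in ESCs. Replicate 2 of the ESC group stood apart. Its log2 values correlated with those of replicates 1 and 3 at r = 0.903 and 0.890 over 10979 genes, against 0.955 between these, and 13.7% of the genes were more than 2-fold below both, among them Fdft1 and Fdps. All 3 of its wells were low in Fdft1, at 22.6 to 37.3 CPM (reads scaled to a common library size) against 134 to 199 in the other 6 ESC wells, and in Gapdh, a glycolytic enzyme, at 165 to 206 against 6774 to 7953. Whether it was another culture or a mixed-up sample is not known, and its pluripotent markers summed to the highest value of the 3. Since all libraries shared 1 estimate of the spread, this library also entered comparisons without ESCs, and values without it are given where they change a call.

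Promoter sequence was at hand for 5 of the 8 genes (Hmgcs1, Idi1, Lss, Cyp51 and Insig1). Upstream stretches of 3 of them, from RefSeq on GRCm38.p6, are shown because they hold between them the motifs that this pathway is known for, a sterol regulatory element, which SREBP binds, and the boxes of its usual partners NF-Y and SP1. They run 5′ to 3′ on the gene's strand, and capitals mark TCACNCCAC (sterol regulatory element), CCAAT (read as ATTGG on the other strand) and GGGCGG (the GC box, CCGCCC on the other strand). They lie at chr13:119690101-119690350 (Hmgcs1, plus strand, up to the base before the start site), chr10:76531355-76531587 (Lss, plus strand) and chr5:28071162-28071362 (Insig1, plus strand), outside the GENCODE gene bodies.
Hmgcs1: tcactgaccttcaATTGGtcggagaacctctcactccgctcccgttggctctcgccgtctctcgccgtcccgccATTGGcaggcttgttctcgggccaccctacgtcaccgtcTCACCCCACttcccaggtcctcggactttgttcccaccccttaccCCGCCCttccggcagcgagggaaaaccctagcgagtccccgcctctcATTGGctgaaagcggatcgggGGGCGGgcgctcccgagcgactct
Lss: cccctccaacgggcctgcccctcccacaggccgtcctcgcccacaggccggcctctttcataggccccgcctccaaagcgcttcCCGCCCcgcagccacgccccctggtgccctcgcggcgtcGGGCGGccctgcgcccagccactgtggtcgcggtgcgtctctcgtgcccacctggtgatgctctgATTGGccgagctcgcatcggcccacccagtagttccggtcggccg
Insig1: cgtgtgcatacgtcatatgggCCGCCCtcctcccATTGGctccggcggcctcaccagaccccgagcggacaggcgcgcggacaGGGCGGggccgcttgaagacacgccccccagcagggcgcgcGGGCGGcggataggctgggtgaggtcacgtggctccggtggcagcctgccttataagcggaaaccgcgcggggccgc
Windows of the 250 bases upstream of the start were searched on both strands. CCAAT was found in 5 of 5 and in 33.8% of all 32851 promoters, and GGGCGG in 5 of 5 and in 32.7% of all. TCACNCCAC was in the Hmgcs1 window only, at -137 to -129 from the start, as in 1.05% of all promoters. Only exact matches to these letters were searched, so variants of the element would have been missed. CAGAC, the box that SMAD3 binds, was in the Idi1 and Insig1 windows and in 42.2% of all. CACGTG, an E box, was in the Insig1 window and in 6.02% of all. These are matches of letters and not measured binding.

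Between MEFs and day 3 the 8 genes did not move together. In control cells Idi1 was called higher and Insig1 lower, where 22.6% and 20.9% of all genes tested were called higher and lower (adjusted p under 0.05 over all genes, from the quasi-likelihood test of edgeR with Benjamini-Hochberg adjustment). Idi1, the isomerase of the isoprenoid branch, was at 107, 43.4 and 64.8 normalized counts in MEF replicates 1 to 3 and at 90.9, 112 and 109.7 on day 3, ranges that overlapped because MEF replicate 1 was high (log2 fold change 0.66, SE 0.26, adjusted p = 0.0329 by edgeR). Insig1 was at 24.4, 30.4 and 28.5 in MEFs and at 8.02, 12.97 and 17.1 on day 3, with every control library below every MEF library (log2 fold change -0.9996, SE 0.37, adjusted p = 0.0242 by edgeR). Cyp51 was also below MEFs in every library, at 118, 71.3 and 97.5 against 182, 136 and 136, which made 2 of 8 wholly below against 28.5% of all genes, but it missed the threshold (adjusted p = 0.0579). It passed without ESC replicate 2 (adjusted p = 0.0249, within a range of 0.0131 to 0.225 over its alternatives). The DESeq2 Wald test called Insig1 and Cyp51 lower and left Idi1 uncalled.

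In +Sm3CA cells Idi1 and Lss were called higher than in MEFs on day 3 and no member lower, where 22.4% of all genes were called higher and 20.7% lower. Idi1 stood at 119.7, 114 and 116 normalized counts, all above MEFs (log2 fold change 0.82, SE 0.25, adjusted p = 0.00758 by edgeR). Lss, the cyclase that makes lanosterol, stood at 23.0, 31.5 and 23.0 against 6.67, 7.60 and 22.5 in MEFs, where MEF replicate 3 nearly reached the +Sm3CA libraries (log2 fold change 1.12, SE 0.40, adjusted p = 0.0213 by edgeR). These 2 lay wholly above MEFs, against 22.4% of all genes, and Cyp51 (86.7, 103 and 122) and Insig1 (22.3, 22.3 and 16.7) lay wholly below without being called, against 26.9% of all genes. Both day 3 groups are set against the same MEF libraries, which were not sorted, and fibroblast markers summed to 1005 to 1470 normalized counts on day 3 in control cells and to 1312 to 1662 with Smad3CA, below the MEF values above. In bulk samples, fewer cells of a type and less RNA per cell cannot be told apart. The counts of called members depended on single libraries. Without ESC replicate 2, when 45.8% and 45.5% of all genes were called in either direction in control and +Sm3CA cells, the 2 calls became 3 in each, with Cyp51 added in control cells and Fdft1 (241, 342 and 281 normalized counts against 174, 255 and 170.3 in MEFs) added in +Sm3CA cells. For Fdft1 the log2 fold change was 0.64 with adjusted p = 0.0621 and, without that library, 0.61 with adjusted p = 0.00617 (range over its alternatives 0.00617 to 0.266). In control cells neither Idi1 nor Insig1 was called without MEF replicate 2 or MEF replicate 3, Insig1 was not without control day 3 replicate 1, and Idi1 was not without control day 3 replicate 2 or 3. In +Sm3CA cells Lss was not called without MEF replicate 1 or +Sm3CA day 3 replicate 2, and without MEF replicate 2 neither Idi1 nor Lss was called and Fdft1 was.

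**Figure D1:**
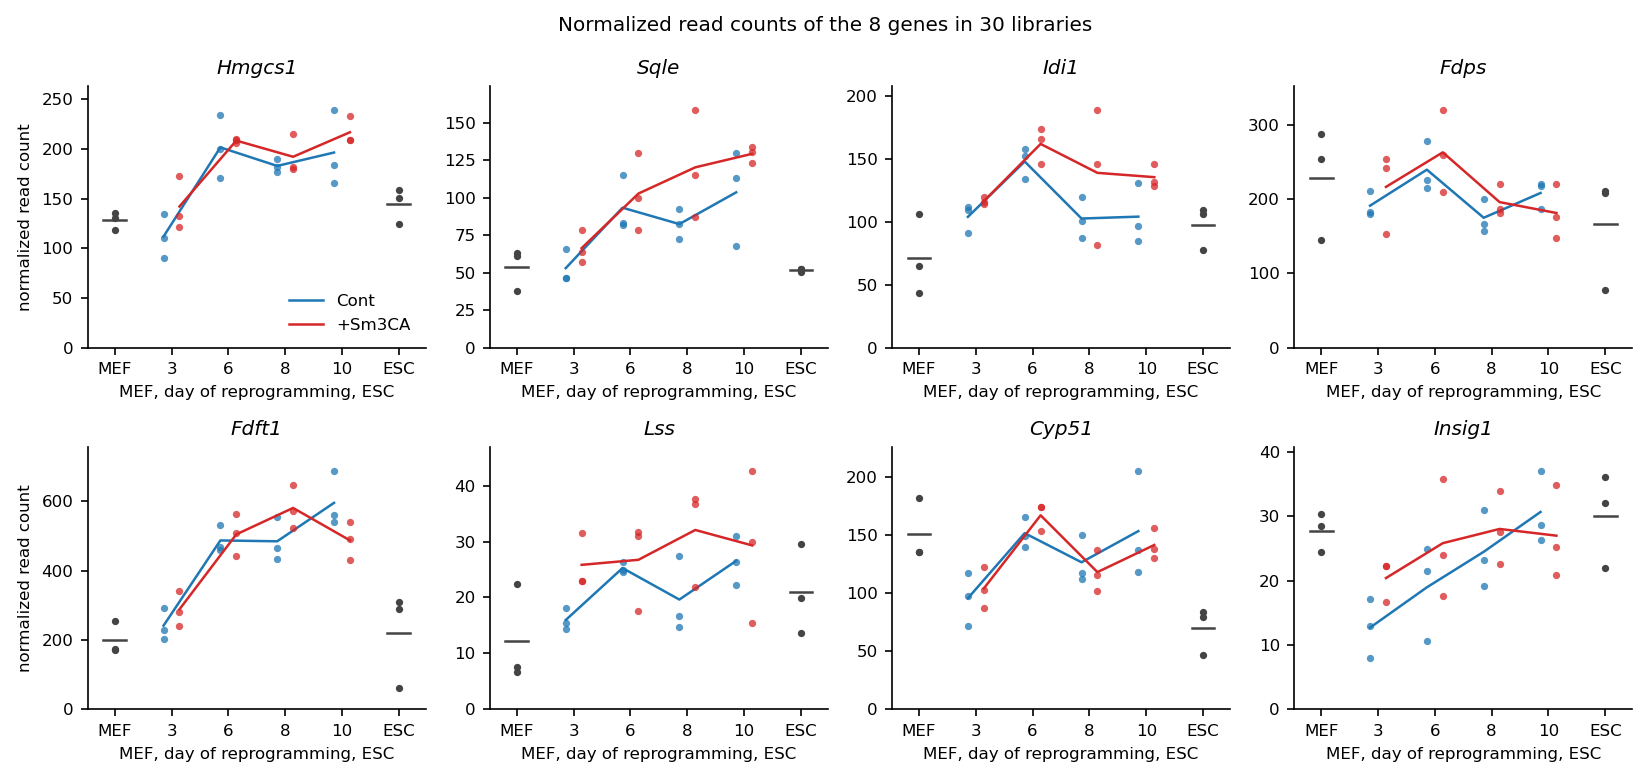
Normalized read counts (y axis, linear, from 0) of each of the 8 genes against MEF, day of reprogramming and ESC (x axis). Points are the 3 libraries of a group, lines join the means of the control (blue) and +Sm3CA (red) series, and short bars are the means of MEFs and ESCs. Hmgcs1 and Fdft1 climb between days 3 and 6 in both series, and 1 ESC library lies far below the other 2 in Fdft1 and Fdps.

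From day 3 to day 6 Hmgcs1 and Fdft1 rose in control cells. All 8 fitted changes were positive, 7 of the 8 genes had every day 6 library above every day 3 library, against 15.5% of all genes, and the median change was 0.67 on the log2 scale against 0.02 over all genes. The 2 were called higher where 2.94% of all genes were called higher and 1.98% lower. Hmgcs1, the entry to the mevalonate pathway, rose from 111, 135 and 90.2 normalized counts to 170.3, 200.1 and 235 (log2 fold change 0.87, SE 0.20, adjusted p = 0.00517 by edgeR). Fdft1, the squalene synthase, rose from 227, 293 and 202 to 532, 461 and 468 (log2 fold change 1.03, SE 0.28, adjusted p = 0.0201 by edgeR). The 2 groups did not overlap in either gene.

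The other members that were separated on day 6 without passing the threshold were Sqle (81.7, 83.3 and 115 against 66.0, 46.7 and 46.3 normalized counts), Cyp51 (149.5, 166 and 139.7, with day 3 given above), Lss (26.3, 24.9 and 24.6 against 14.3, 18.2 and 15.4), Idi1 (152, 134 and 158) and Fdps (225, 214 and 278 against 179, 183 and 211). Insig1 overlapped, with 21.5, 24.9 and 10.5. The number of members called depended on the libraries used. It was 4 without ESC replicate 2, when 7.01% of all genes were called in either direction and Sqle (adjusted p = 0.0343) and Cyp51 (adjusted p = 0.0388) were added, and it was 4 with the 24 reprogramming libraries alone and 5 with the 2 groups alone, which added Idi1 too. It was 1 without control day 3 replicate 1, or control day 6 replicate 1 or 2, and 0 without control day 3 replicate 3, the lowest of day 3 in Hmgcs1 and Fdft1. Over all alternatives the adjusted p ranged from 0.00268 to 0.244 for Sqle and from 0.00377 to 0.364 for Cyp51.

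Later intervals gave no calls in control cells, and no test compared the intervals with each other. From day 6 to day 8, 0 members were called (0.975% of all genes in either direction), with 1 at an unadjusted p under 0.05, and 0 were called by the DESeq2 Wald test. All day 8 libraries of Idi1 (101, 87.6 and 119.9) and of Fdps (166, 200.5 and 157) were nevertheless below all day 6 libraries, as in 8.63% of all genes. From day 8 to day 10, 0 were called (1.26% of all genes), with 0 at an unadjusted p under 0.05 and 0 by DESeq2, and the fitted changes ran from -0.02 to 0.42 on the log2 scale.

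Over the whole course from day 3 to day 10 in control cells, 5 of the 8 members were called higher and 0 lower, where 10.7% of all genes were called higher and 8.35% lower. The median change of the 8 was 0.75 on the log2 scale, against 0.08 over all genes. Fdft1 ended at 686, 539 and 561 normalized counts, 2.43-fold above day 3 (log2 fold change 1.28, SE 0.28, adjusted p = 0.000849 by edgeR). Hmgcs1 ended at 239.5, 184 and 166 (log2 fold change 0.79, SE 0.20, adjusted p = 0.00357). Sqle, a further control point of the pathway, ended at 129.6, 68.1 and 113 (log2 fold change 0.93, SE 0.26, adjusted p = 0.0079). In these 3 genes the lowest day 10 library was above the highest of day 3, for Sqle by little (68.1 against 66.0).

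Cyp51 reached 205, 137 and 118 normalized counts, with its lowest value just above the highest of day 3 (log2 fold change 0.64, SE 0.23, adjusted p = 0.0449). Insig1 reached 37.0, 28.7 and 26.4, from the low values of day 3 (log2 fold change 1.22, SE 0.37, adjusted p = 0.0145 by edgeR), with a range that overlapped with that of MEFs. Lss (22.2, 31.1 and 26.4) did not overlap with day 3 but was not called, so that 6 of 8 lay wholly above day 3, against 21.3% of all genes. Idi1 (131, 84.8 and 97.1) and Fdps (219.7, 186 and 218) overlapped with day 3, with fitted changes of -0.03 (SE 0.25) and 0.09 (SE 0.26). These 2 are the enzymes of the isoprenoid stretch among the 8.

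With the replicate number as a block, Cyp51 was no longer called (adjusted p = 0.0577, within a range of 0.0159 to 0.374 over its alternatives) and 4 members were. Control day 10 replicate 1 held the highest value of the group in 7 of the 8 members, all but Lss. Without it only 1 of the 8, Fdft1, was called, and without control day 3 replicate 3 the number was 3. The same library had the lowest sum of 8 macrophage markers on day 10, at 623 normalized counts against 2746 and 2564 in replicates 2 and 3, with 387 to 1112 on day 3. Fibroblast markers summed to 1354 in it and to 2698 and 2732 in the others (1005 to 1470 on day 3), and pluripotent markers to 673, 507 and 1095 in replicates 1, 2 and 3 (64.9 to 74.8 on day 3). Their part in the result was not tested.

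In the +Sm3CA series Hmgcs1, Fdft1 and Cyp51 rose from day 3 to day 6, which made 3 members called higher and 0 lower (6.52% and 5.87% of all genes), with a median change of 0.53 on the log2 scale against 0.04 over all genes. Hmgcs1 went from 133, 173 and 121 normalized counts to 206, 209 and 211 (log2 fold change 0.57, SE 0.19, adjusted p = 0.0449 by edgeR). Fdft1 went from 241, 342 and 281 to 442, 562 and 509 (log2 fold change 0.83, SE 0.28, adjusted p = 0.0404). Cyp51 went from 86.7, 103 and 122 to 153, 174 and 174 (log2 fold change 0.71, SE 0.23, adjusted p = 0.0324). These 3 and Sqle (56.8, 64.0 and 78.2, then 130.0, 100.1 and 78.3) and Idi1 (then 146, 166 and 174) had no overlap between the days, 5 of 8 against 16.1% of all genes above. With the replicate number as a block only Cyp51 was called (adjusted p = 0.0424, range over its alternatives 0.0107 to 0.127), with Hmgcs1 at an adjusted p of 0.0593 (0.0198 to 0.205) and Fdft1 at 0.057 (0.000666 to 0.136). Leaving out any 1 of the 6 libraries lowered the number of calls, to 0 without +Sm3CA day 3 replicate 1 or day 6 replicate 1 or 2, and to 1 without each of the others (Hmgcs1, Cyp51 or Sqle). Without ESC replicate 2, when 15% of all genes were called in either direction, it was 4, with Sqle added (adjusted p = 0.0475, within a range of 0.0355 to 0.375 over its alternatives).

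From day 6 to day 8 and from day 8 to day 10 of the +Sm3CA series 0 members were called by edgeR or by DESeq2 (2.85% and 2.05% of all genes in either direction), with 1 and 0 at an unadjusted p under 0.05. Cyp51 was at 137, 115 and 102 normalized counts on day 8, below every day 6 library as in 9.55% of all genes, without passing the threshold (adjusted p = 0.224). Between days 3 and 10, 3 members were called higher and 0 lower, where 14.2% of all genes were called higher and 12.2% lower. Sqle ended at 130.4, 123 and 134 normalized counts, 1.96-fold above day 3 (log2 fold change 0.97, SE 0.25, adjusted p = 0.0033 by edgeR). Fdft1 ended at 539.7, 492 and 429.7 (log2 fold change 0.77, SE 0.28, adjusted p = 0.0359) and Hmgcs1 at 209, 209 and 233 (log2 fold change 0.62, SE 0.20, adjusted p = 0.0166). No day 10 library of these 3 overlapped with day 3. Without +Sm3CA day 3 replicate 1 or 3 only Sqle was called. Over the 7 fits that left out 1 library, Fdft1 lost its call in 4 (largest adjusted p = 0.123 by edgeR). Hmgcs1 lost it in 3 (largest adjusted p = 0.0888) and Sqle in 0 (0.0224). Macrophage markers summed to 314 to 672 normalized counts on day 3 and to 890 to 1586 on day 10, fibroblast markers to 1312 to 1662 and 1294 to 1658, and pluripotent markers to 54.7 to 72.0 and 1127 to 2379, and their part in the result was not tested.

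Of the rest, Cyp51 (130.4, 138 and 156) and Idi1 (132, 146 and 129 against 119.7, 114 and 116) also lay above day 3 in every library without being called, which made 5 of 8, against 22.1% of all genes. Insig1 (25.2, 35.0 and 20.8 against 22.3, 22.3 and 16.7), Lss (15.4, 42.6 and 29.9) and Fdps (220.1, 176 and 147 against 242, 253 and 153) overlapped. Sqle, Fdft1 and Hmgcs1, called here, were among the 5 called in control cells. The difference between the 2 series in the change from day 3 to day 10 was tested as an interaction, and 0 members were called (0.383% of all genes), with 0 at an unadjusted p under 0.05 and 0 by DESeq2. The fitted interaction was -0.81 for Insig1 (95% interval -1.83 to 0.21) and -0.52 for Fdft1 (-1.31 to 0.27).

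**Figure D2:**
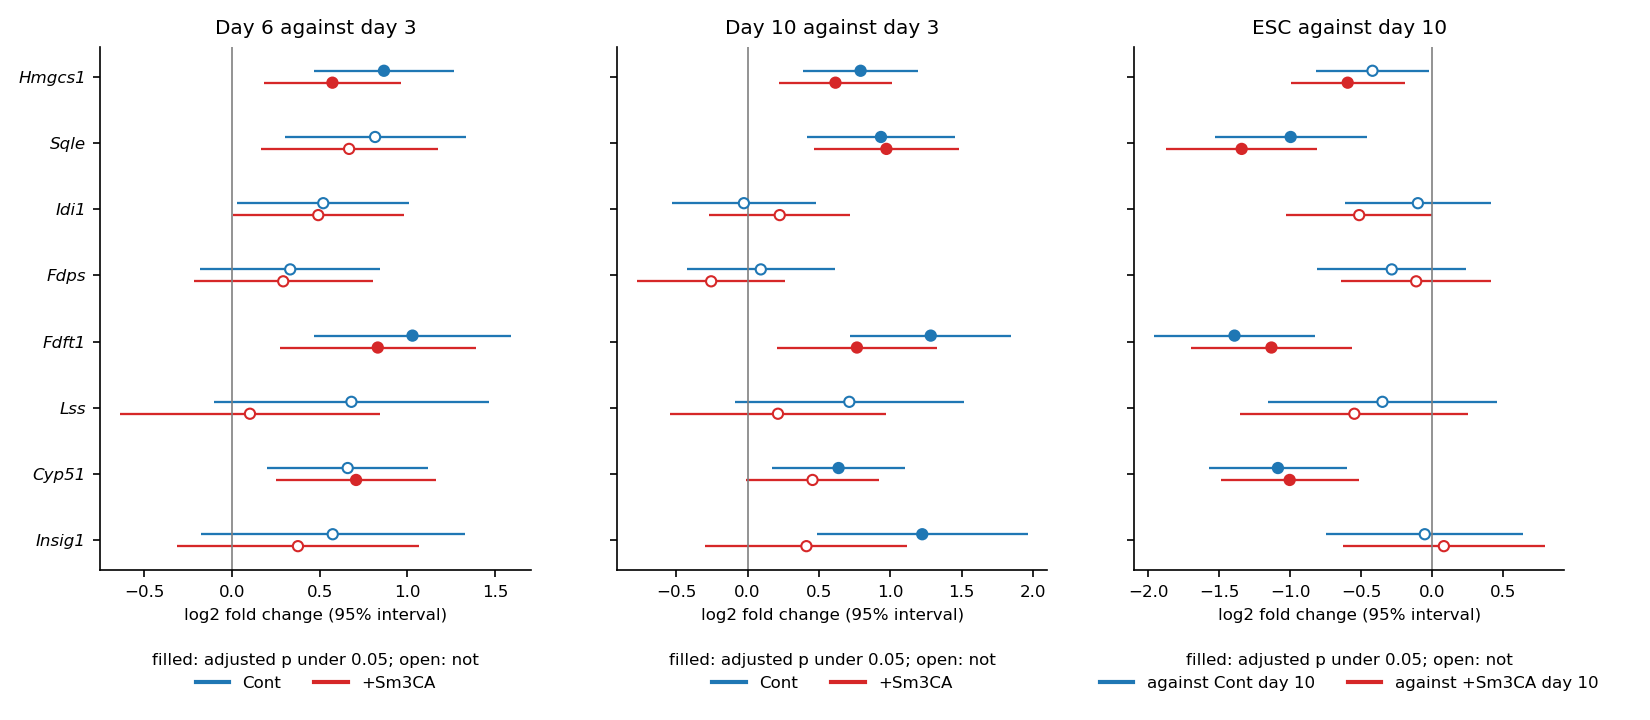
Log2 fold changes (x axis) with 95% intervals of the 8 genes (y axis) for day 6 against day 3, day 10 against day 3 and ESC against day 10, from the control (blue) and +Sm3CA (red) series, 3 libraries a group. Filled circles passed the adjusted threshold. Hmgcs1 and Fdft1 are filled in both series at both times, and every called change between ESC and day 10 is negative.

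Sqle, Fdft1 and Cyp51 were lower in ESCs than on day 10 of either series. Against control day 10, 3 members were lower in ESCs and 0 higher, where 30.3% of all genes were called lower and 21.5% higher. Against +Sm3CA day 10, 4 were lower and 0 higher, where 27.2% were called lower and 18.6% higher. The share of members called lower was thus near that of all genes against control (3 of 8) and above it against +Sm3CA (4 of 8). These shares were not tested, and among 8 genes 1 call changes them much. The median change was -0.39 and -0.57 on the log2 scale, against -0.15 over all genes in both. Wholly below day 10 lay 4 of the 8 (these 3 and Hmgcs1) against control and 5 of the 8 (Idi1 too) against +Sm3CA, where 30.8% and 28.2% of all genes did. The ESCs were in the same base medium as the reprogramming cells, without doxycycline and vitamin C, and were not sorted for mOrange.

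Sqle was at 50.2, 52.4 and 52.7 normalized counts in ESCs, below every day 10 library of either series (log2 fold change -0.998, SE 0.27, adjusted p = 0.00168 against control, and -1.34, SE 0.26, adjusted p = 5.7e-05 against +Sm3CA, by edgeR). Cyp51 was at 79.5, 47.0 and 83.6, again below all of them (log2 fold change -1.09, SE 0.24, adjusted p = 0.000209, and -1.01, SE 0.24, adjusted p = 0.0007). Fdft1 was at 309, 59.6 and 288, with replicate 2 far below the others. Its log2 fold change of -1.39 against control (adjusted p = 6.9e-05) and of -1.13 against +Sm3CA (adjusted p = 0.00104) shrank to -0.93 (adjusted p = 0.000245) and -0.69 (adjusted p = 0.00586) without that library. The adjusted p ranged from 1.51e-08 to 0.0234 and from 5.16e-06 to 0.0547 over its alternatives.

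Hmgcs1, at 159, 125 and 150.45 normalized counts in ESCs, was called lower against +Sm3CA only (log2 fold change -0.60, SE 0.20, adjusted p = 0.0126, and 0.0623 without ESC replicate 2, within a range of 0.00751 to 0.0623) and was at -0.42 against control (adjusted p = 0.0714). It was not called without +Sm3CA day 10 replicate 3 either. With the 2 groups alone, Hmgcs1 and Fdft1 were not called against +Sm3CA day 10 (adjusted p = 0.0568 and 0.0547), which left 2. The members that showed no call in ESCs against day 10 were Idi1 (77.6, 107 and 109), Fdps (211, 77.7 and 208), Lss (13.7, 19.9 and 29.6) and Insig1 (21.9, 36.1 and 32.1).

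Set against the starting MEFs, ESCs differed in 1 of the 8 genes, while 29.1% of all genes were called higher and 30.5% lower. Cyp51 was lower in every ESC library than in every MEF library, as were 31.1% of all genes (log2 fold change -0.98, SE 0.24, adjusted p = 0.000517 by edgeR). The other 7 ran from -0.32 to 0.79 on the log2 scale with overlapping ranges. Without ESC replicate 2, when 56.4% of all genes were called in either direction, Fdft1 was called higher as well (log2 fold change 0.70, adjusted p = 0.00338, range over its alternatives 0.00338 to 0.885), and 2 members were also called without MEF replicate 1 or MEF replicate 3. Sqle stood at 38.0 to 63.1 normalized counts in MEFs, at 50.2 to 52.7 in ESCs and at 68.1 to 134 on day 10 of the 2 series.

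None of the 8 genes differed between +Sm3CA and control cells beyond the threshold on any day. The calls were 0 of 8 on each of days 3, 6, 8 and 10, where 0.0182%, 0.00911%, 0.291% and 2.04% of all genes were called in either direction, and 0, 0, 1 and 0 members had an unadjusted p under 0.05. The DESeq2 Wald test also called 0 on each day. The fitted difference was positive for 8, 8, 7 and 4 of the 8 genes on these days, with medians of 0.28, 0.13, 0.22 and 0.05 on the log2 scale, against 0.00, 0.00, -0.02 and 0.00 over all genes. No test was made of these medians, and the genes of a library share its depth and its cells.

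On day 3, Lss was at 23.0, 31.5 and 23.0 normalized counts with Smad3CA and at 14.3, 18.2 and 15.4 without, and Idi1 at 119.7, 114 and 116 against 90.9, 112 and 109.7. These 2 did not overlap, as 5.56% of all genes did not with +Sm3CA above. The fitted differences were 0.70 for Lss (95% interval -0.09 to 1.49), 0.16 for Idi1 (-0.33 to 0.66) and 0.68 for Insig1 (-0.08 to 1.43), which was at 22.3, 22.3 and 16.7 with Smad3CA and at 8.02, 12.97 and 17.1 without. Lss and Insig1 had 9 to 34 reads per library on day 3, and their intervals were wider than that of Hmgcs1 (-0.05 to 0.75), which had 104 to 186 reads.

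On day 8 Sqle was at 115, 159 and 87.2 normalized counts with Smad3CA and at 72.5, 82.3 and 92.5 without, an overlap in 1 library (log2 fold change 0.55, 95% interval 0.06 to 1.03, adjusted p = 0.365 by edgeR). On days 6, 8 and 10 all 8 members overlapped between the vectors, where 11.3%, 15.5% and 20.1% of all genes did not. On day 10 the fitted differences ran from -0.26 for Fdft1 (-0.81 to 0.29) to 0.41 for Idi1 (-0.09 to 0.92). A difference of 2-fold in either direction lay outside the interval of every member on day 10, the widest bounds being -0.83 for Insig1 and 0.97 for Lss.

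**Figure D3:**
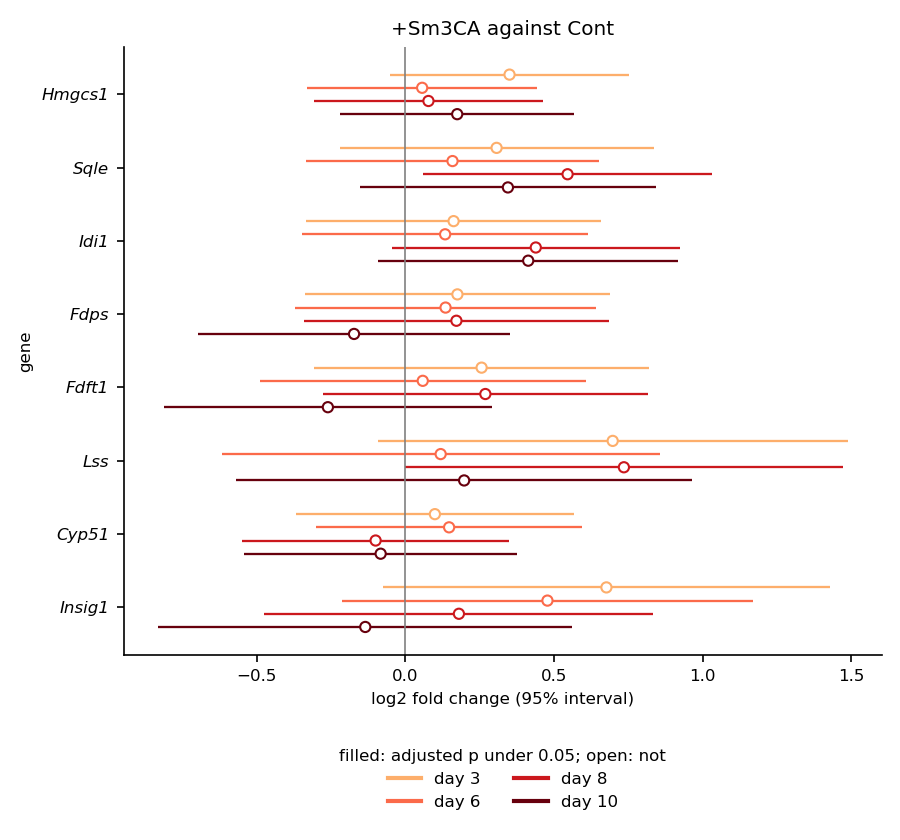
Log2 fold change of +Sm3CA against control (x axis) with 95% intervals for the 8 genes (y axis) on days 3, 6, 8 and 10, from light to dark, 3 libraries against 3. All circles are open, since no adjusted p was under 0.05, and all intervals but that of Sqle on day 8 contain 0.

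Over the 30 libraries the members went together to unequal degrees. The 28 pairs had correlations of log2 CPM from -0.227 (Fdps and Insig1) to 0.794 (Hmgcs1 and Fdft1), with a median of 0.457. Hmgcs1 and Sqle had r = 0.789 and Sqle and Fdft1 0.695. Fdps stood apart from Sqle (r = 0.0965) and from Lss (-0.0909). Its correlation with Fdft1 fell from 0.519 to 0.14 without the ESC libraries. ESC replicate 2 was among them and was low in both genes. It had 59.6 (Fdft1) and 77.7 (Fdps) normalized counts, against 288 to 309 and 208 to 211 in replicates 1 and 3. All other correlations here include that library, and none was computed with only it left out. These values describe 30 libraries that share groups, depth and plate, and they carry no test. When the mean of the 8 centred log2 values was taken as 1 profile, the 10 genes outside the list most like it, of 10971, were Gpcpd1 (r = 0.872), Gjb5, Cphx1_loc1, Gpt2, Crhr2, Klk11, Myl4, Mboat2, Eppk1 and Prkcz (0.834). None of these 10 is among the other genes of the pathway looked at here, of which Nsdhl (0.735, rank 154) came nearest among the synthesis genes.

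The rest of the synthesis pathway comprised 15 further genes, of which 14 were tested. In control cells 4 of the 14 were higher and 1 lower on day 10 than on day 3, where 10.7% and 8.35% of all genes were, with a median over the list of 0.18 on the log2 scale against 0.08 over all genes. The 4 were Mvd, which makes isopentenyl diphosphate (log2 fold change 1.42, SE 0.51), and Msmo1 (1.08, SE 0.27), Lbr (0.90, SE 0.24) and Nsdhl (0.79, SE 0.29), which work on sterols after lanosterol. Lbr is also a protein of the nuclear envelope. Hsd17b7, the enzyme beside Nsdhl, was lower (-0.76, SE 0.23). With Smad3CA 3 were higher, among them Lbr (1.70, SE 0.24) and Mvd (1.66, SE 0.49), and 2 lower, Hsd17b7 (-0.76, SE 0.23) and Ebp (-0.75, SE 0.25), where 14.2% and 12.2% of all genes were, with a median of 0.15. Between ESCs and MEFs 3 of the 14 were higher and 4 lower, no more than the 29.1% and 30.5% of all genes. The 3 higher included Dhcr7 (2.47, SE 0.56), and the 4 lower included Hsd17b7 (-2.25, SE 0.28) and Sc5d (-2.05, SE 0.33). Between the vectors edgeR called 0 of the 14 on each day, with 0, 1, 3 and 2 at an unadjusted p under 0.05, in the order of the days.

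**Figure D4:**
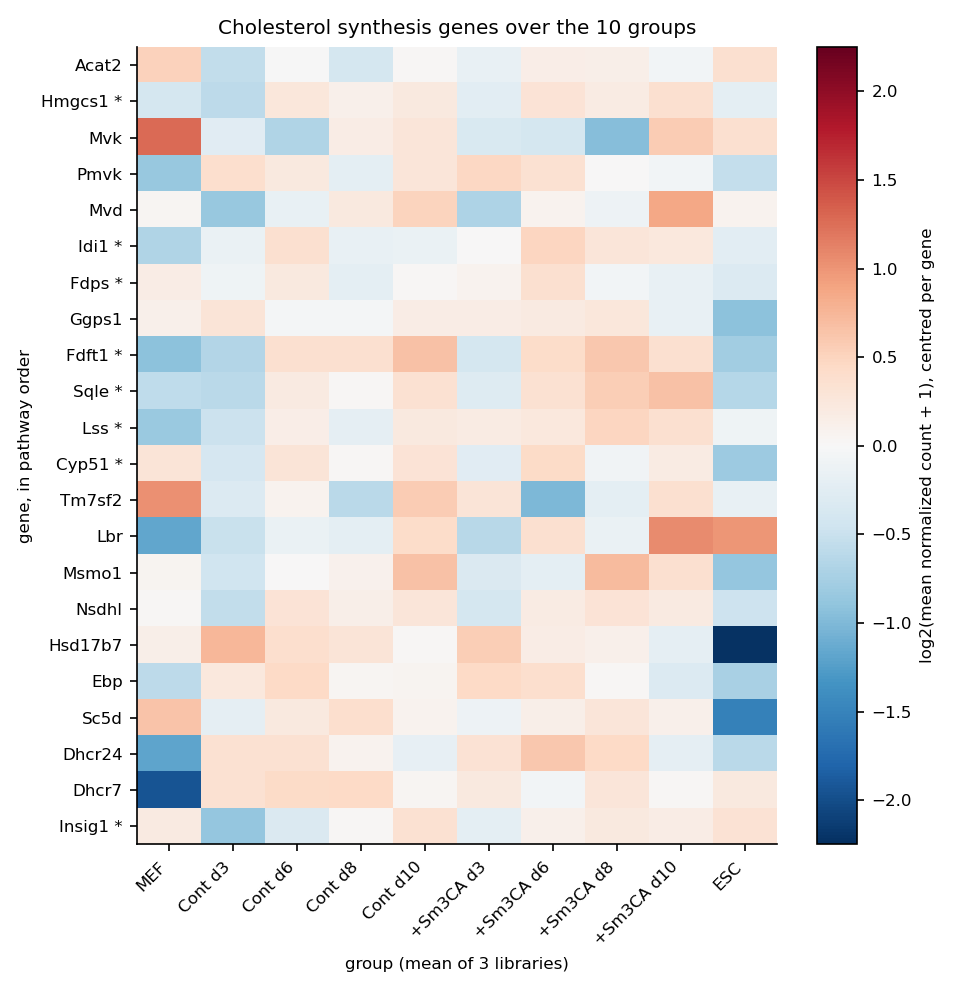
Group means of the 8 members and 14 other synthesis genes in pathway order, with Insig1 last (y axis, stars mark the 8 members) over the 10 groups (x axis), as log2(mean normalized count + 1) centred on each gene's own mean. Hmgcs1, Sqle, Fdft1 and Msmo1 go from blue on day 3 to red on day 10 in both series, whereas Hsd17b7 and Ebp have lower means on day 10 than on day 3.

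Among 17 genes of sterol sensing and uptake, 15 of them tested, 2 were higher and 2 lower on day 10 than on day 3 in control cells and 3 were higher and 3 lower with Smad3CA. These are shares near those of all genes (10.7% higher and 8.35% lower, and 14.2% higher and 12.2% lower), so the single genes below are not a result about the list. Srebf1, which encodes SREBP1, the factor more tied to fatty acid synthesis, was higher in both (log2 fold change 1.33, SE 0.38, and 1.05, SE 0.38). Mbtps1 in control cells (0.70, SE 0.25) and Mbtps2 with Smad3CA (1.74, SE 0.45), the proteases that cut SREBP, were higher too. Tmem97 was lower in both (-1.13, SE 0.25, and -1.11, SE 0.25), Lrp8 was lower in control cells, and Scarb1, the HDL receptor, was lower with Smad3CA (-1.27, SE 0.42). Srebf2, which encodes SREBP2, was not called in either (0.49, SE 0.43, and 0.02, SE 0.38).

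Of 7 tested genes of sterol efflux and storage, 2 were higher in control cells and 1 with Smad3CA between days 3 and 10, and 0 lower, beside the same shares of all genes. Abca1, the cholesterol exporter, rose between days 3 and 10 in both series (1.91, SE 0.36, and 2.47, SE 0.35) and Ch25h, which makes 25-hydroxycholesterol, rose in control cells (2.23, SE 0.59). Of 9 tested genes of fatty acid synthesis, 1 was higher in control cells and 3 were higher and 1 lower with Smad3CA. Scd1, a desaturase, rose in both (1.05, SE 0.26, and 1.35, SE 0.25), and Elovl6 (0.57) and Scd2 (0.53) rose and Me1 fell (-0.85) with Smad3CA. Between ESCs and MEFs 2 genes of sensing and uptake were higher (Mbtps2, 1.73, and Srebf1, 0.94) and 6 lower, among them Scap (-2.01), the escort of SREBP, 1 of efflux and storage was higher (Apoe, 5.01) and 3 lower, among them Lipa (-2.83) and Soat1 (-1.54), and 3 of fatty acid synthesis were higher (Acly and Elovl6, each 1.09, and Fasn, 0.75) and 4 lower, among them Me1 (-2.72). Over all genes 29.1% were higher and 30.5% lower in that comparison. Between the vectors edgeR called 0 of these 16 genes and 0 of the 15 of sensing and uptake on each day. At an unadjusted p under 0.05 there were 1, 1, 1 and 2 genes of sensing and uptake, 1, 2, 2 and 3 of efflux and storage, and 0, 1, 3 and 2 of fatty acid synthesis, in the order of the days.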

How the data were processed

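STRT RNA-seq counts of MEF, ESC and reprogramming samples were analysed. The authors deposited a table of raw counts, 1 column per well and not normalized. The submitters' processing notes name Bowtie 0.12.9, DESeq2 1.6.3 and mm10. These are reads and not molecules, so amplification copies count. The 84 wells were summed to 30 libraries of 1008596 to 2296059 reads (3 wells per replicate, 2 on day 10), so genes with few reads, such as Lss and Insig1, are measured less precisely.

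Counts were tested with edgeR 4.0.16 in R 4.3.3 (TMM, filterByExpr, glmQLFit, glmQLFTest) in 1 fit of 10 groups, with Benjamini-Hochberg adjustment over 10979 genes and a threshold of 0.05. Normalized counts used DESeq2 1.42.0 size factors. Intervals are 95% from the fit. The analysis was tested on simulated data. The labels call replicates biological.

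Members and lists were chosen with earlier results of these data known. Named were the 8 members, up to 4 called genes per list, comparison and direction (ESC against MEF, day 10 against day 3, vectors), and the 10 genes most correlated with the members' mean. The design text pairs replicate numbers over days within each series. Deviations of same-numbered libraries had a mean r of 0.000778 (control) and 0.0122 (+Sm3CA). Alternatives were DESeq2 size factors, the DESeq2 Wald test, no filter, fewer libraries, a replicate block, 1 well and leaving out each library. Leaving ESC replicate 2 out of all comparisons was added after seeing the data. Some genes of the lists enter their counts but are not reported singly here.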

Additional observations from a re-analysis of the deposited data

Results flagged for a closer look

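Fdps was looked at again because its change from day 3 to day 10 went in opposite directions in the 2 series. In the numbered replicates it was higher on day 10 in 3 of 3 control pairs and lower in 3 of 3 +Sm3CA pairs. Tested as an interaction, the difference was -0.35 on the log2 scale (95% interval -1.08 to 0.39, adjusted p = 0.852 by edgeR), and the day 10 libraries overlapped with day 3 in both series.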

How the results depend on the processing

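Members were followed here in the comparisons where they were called or their groups did not overlap. Added were comparisons where a member was called without ESC replicate 2. All members were followed in day 10 against day 3 of either series and between the vectors on days 3 and 10. Their fitted values kept direction and side of the threshold in 402 instances over the alternatives that kept all replicates. They lost their call in 19, gained one in 18 and changed sign in 4. The 4 were all Idi1 in control day 10 against day 3, near 0 at -0.03, with 0.0021 for DESeq2 size factors, 0.0022 for the Wald test, 0.015 for the 2 groups alone and 0.000057 for 1 well per replicate. With 1 library left out, sign changes took Idi1 in that comparison from -0.25 to 0.096, Lss in +Sm3CA day 10 against day 3 from -0.16 to 0.52, Fdft1 in ESC against MEF from -0.098 to 0.70, and the vector difference from -0.068 to 0.27 for Cyp51 on day 3 and on day 10 from -0.23 to 0.22 for Cyp51, from -0.36 to 0.056 for Insig1 and from -0.17 to 0.52 for Lss. The number of members called was 1 without the low-count filter and 0 with 1 well per replicate for control day 3 against MEF, 0 with 1 well for +Sm3CA day 3 against MEF, 5 with the groups alone and 4 with the 24 reprogramming libraries for control day 6 against day 3, 1 with the replicate block and 1 with 1 well for +Sm3CA day 6 against day 3, 3 with 1 well for control day 10 against day 3, and 2 with the groups alone for ESC against +Sm3CA day 10. With 1 library left out it was 1 to 2 for ESC against MEF, 1 to 3 for control day 3 against MEF and for +Sm3CA day 3 against MEF, 0 to 4 for day 6 against day 3 in either series, 1 to 5 for control day 10 against day 3, 1 to 3 for +Sm3CA day 10 against day 3, 3 for ESC against control day 10 and 3 to 4 for ESC against +Sm3CA day 10, and 0 for the other comparisons. The cause was not tested, except that 1 well holds fewer reads. The replicate block changed the calls of Hmgcs1, Fdft1 and Cyp51 given with the results and no other. Same-numbered MEF and ESC libraries and same-numbered libraries of the 2 vectors had a mean r of -0.0587 and -0.0136. Over all genes, calls between the vectors on day 8 went from 32 to 57 by the Wald test, 129 without the filter and 106 with the 24 libraries, those on day 10 from 224 to 337, 415 (groups alone) and 366, and those of the interaction from 42 to 87, 128, 153 and 103. Control day 6 against day 3 went from 540 to 1616 with the groups alone and 934 with the 24 libraries. The lists of other pathway genes were tested with the 30 libraries only. Depth limits Lss and Insig1 most.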
